A study of Homo sapiens with 20 samples.

Results

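The genes described here carry newly made protein out of the endoplasmic reticulum (ER), through the Golgi apparatus and into secretory vesicles. They were the 45 rows of a joint expression table of 60483 genes whose Ensembl identifier maps to a symbol on a list of names. The list holds 13 COPII coat genes, 8 COPI coat genes, 6 genes of the ARF GTPase machinery, 12 cargo receptor genes and 6 secretory vesicle genes. A row was found for each of the 45, and 43 were tested, that is, had at least 1 FPKM in at least 2 of the 20 libraries. The other 2, SEC16B of the COPII class and SYTL2 of the vesicle class, were at no more than 0.1 and 0.0314 FPKM in any library. Each of the 43 tested genes had at least 1 FPKM in both DMSO libraries of at least 1 cell model, and 34 had it in all 5 models.

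RNA was sequenced from 5 models of multiple myeloma, a cancer of plasma cells, each treated with indirubin-3'-monoxime (I3MO) or with the vehicle DMSO. I3MO belongs to the indirubins, compounds known as inhibitors of kinases and as ligands of the aryl hydrocarbon receptor. The I3MO groups were ANBL6BR and ANBL6 at 5 µM, and ARP1, RPMI8226 and U266 at 10 µM, and each had a DMSO group of the same model. ANBL6BR is the name used here for ANBL6 cells whose genotype is labelled bortezomib resistant, bortezomib being an inhibitor of the proteasome, and the other models are labelled wild type. There were 2 libraries for each of 10 groups (20 together), and the source of every library is labelled bone marrow. Dose and model cannot be told apart between the 5 µM and the 10 µM models. Treatment time, and whether the replicates were separate cultures, are not given in the sources used here, so p-values measure only the spread between these libraries, which may be technical.

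Proteins that enter the ER leave it in vesicles coated with COPII, a coat that the GTPase SAR1 assembles at ER exit sites. COPI vesicles, whose coat is recruited by ARF GTPases, carry escaped ER residents and empty receptors back from the Golgi. Cargo receptors span the membrane and link soluble cargo inside the lumen to either coat, and RAB27 with its synaptotagmin-like partners docks late vesicles at the plasma membrane. Plasma cells and myeloma cells secrete immunoglobulin, and this traffic is among the functions for which the cell type is known.

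Library totals ran from 12.11 to 20.31 M (mega) fragments. Of 10 plasma cell markers, 9 reached 1 FPKM. XBP1 was listed at 0 in all 20 libraries, a value that may be a failed estimate and was not read as absence. The summed level of the list was 217 to 472 FPKM in I3MO libraries and 237 to 626 FPKM in DMSO libraries. For T, myeloid, erythroid, stromal and endothelial cells 1 of 5 markers each reached 1 FPKM anywhere, and 2 of 5 did for early B cells. The highest sums were 53.7 FPKM for myeloid markers in a RPMI8226 DMSO library and 27 FPKM for endothelial markers in an ANBL6BR DMSO library, and the part of such cells in the results was not tested. In these bulk libraries, a change in the number of cells of a type and a change in RNA per cell cannot be told apart. The ANBL6 I3MO libraries listed 32668 and 28419 genes above 0, against 22138 and 22710 in the ANBL6 DMSO libraries. The 2 ANBL6BR DMSO libraries differed for the traffic genes: 37 of 43 were higher in replicate 1 than in replicate 2, with a median gap of 0.29 on the log2(FPKM + 1) scale, where the median over all genes was 0. The same count held for the ANBL6 DMSO libraries, with a median gap of 0.10.

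Levels of different genes were compared as FPKM per merged exon length. On that scale the highest medians over the 20 libraries were those of ARF1 (349 FPKM), the GTPase that recruits COPI, the p24 cargo receptor TMED9 (215 FPKM) and the lectin LMAN2 (187 FPKM). The lowest medians among tested genes were those of SYTL3 (1.94 FPKM) and SYTL1 (4.03 FPKM), partners of RAB27, and of KDELR3 (2.3 FPKM), a receptor that retrieves ER residents.

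In DMSO all 43 tested genes differed between the 5 models (limma moderated F-test, adjusted p under 0.05), where 90% of all tested genes did. Among protein-coding genes only, 98.7% of all did. ANBL6BR had the highest mean FPKM of the 5 models for 17 genes and ANBL6 for 15, while U266 had the lowest for 17 and RPMI8226 for 16. Median-ratio size factors, which give the typical level of genes in a library, were 1.18 and 1.14 in ANBL6BR DMSO libraries. They were 1.08 and 1.09 in ANBL6, 1.06 and 1.06 in U266 and 0.835 and 0.823 in RPMI8226. The ranking and the ratios below were not scaled by them, and the same ranking over all genes was not made. Of the 5 tested vesicle genes, SYTL1, SLC17A9, HID1 and SYTL3 had the widest ranges of mean DMSO FPKM among the traffic genes, with SYTL1 at or near 0 in ARP1, while RAB27A had a ratio of highest to lowest DMSO mean of 4.84. RPMI8226 had 6.07 and 6.19 FPKM of HID1, a gene of secretory granule formation at the Golgi in worms and mice, and U266 had 0.0623 and 0.0317 FPKM, a ratio of means of 130. SLC17A9, which encodes the vesicular nucleotide transporter, ranged from 9.1 and 7.68 FPKM in ANBL6 to 0.0441 and 0.0568 FPKM in U266, a ratio of 166. Among the receptors, LMAN1 had the widest range after KDELR3, with 110 and 99.5 FPKM in ANBL6BR against 6.24 and 7.6 FPKM in U266, a ratio of 15.1. TMED10, another p24 receptor, had a narrow range, from 39.9 and 39.3 FPKM in U266 to 26.3 and 26.9 FPKM in RPMI8226, a ratio of 1.49.

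With I3MO, the traffic genes that passed the test were almost all higher than in DMSO. A gene was called at a limma adjusted p under 0.05 over 15687 tested genes, and differences are of log2(FPKM + 1), I3MO minus DMSO, ± SE. In ANBL6BR 31 of 43 genes rose and 0 fell, where 18.4% of all tested genes were called, 10% higher and 8.4% lower. In U266 26 rose and 0 fell, where 26.2% of all genes were called, 10.5% higher and 15.8% lower. In ARP1 21 rose and 3 fell, where 37% of all genes were called, 23.1% higher and 13.9% lower. In RPMI8226 18 rose and 1 fell, where 14.8% of all genes were called, 6.19% higher and 8.62% lower. In ANBL6 7 rose and 0 fell, where 7.97% of all genes were called, 4.1% higher and 3.87% lower. The traffic genes are all labelled protein-coding, and more of such genes were called. Among protein-coding genes only, 32 traffic genes were called in ANBL6BR (25.8% of all), 9 in ANBL6 (11.6%), 24 in ARP1 (50%), 20 in RPMI8226 (20.9%) and 27 in U266 (32.9%). For ARP1, where 55.8% of the traffic genes were called in the first test, the 2 shares were near each other with both directions together. By direction, 22 traffic genes rose and 2 fell in ARP1 among protein-coding genes only, where 60.5% of all calls were higher.

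The median difference over the 43 genes was 0.70 in ANBL6BR, 0.15 in ANBL6, 0.33 in ARP1, 0.33 in RPMI8226 and 0.63 in U266, and over all 15687 genes it was between -0.02 and 0.03 in each model. A difference of at least 1, which is at least 2-fold on this scale, was called for 10 genes in ANBL6BR, 9 each in ARP1 and U266, 2 in RPMI8226 and 0 in ANBL6. The share of all genes called at that size was not counted, so whether these counts are unusual was not tested. The ANBL6 count was 0 with the spread taken from the 4 ANBL6 libraries alone, where 0.115% of all genes were called. With the spread from the libraries compared alone, the count was 0 in ANBL6BR (0.408% of all genes), 2 in ARP1 (1.45%), 12 in U266 (6.21%) and 18 in RPMI8226 (10.6%). When each library was left out in turn, 22 of the 31 calls in ANBL6BR, 0 of 7 in ANBL6, 16 of 24 in ARP1, 13 of 19 in RPMI8226 and 20 of 26 in U266 were kept every time. Scaling by the median ratio of genes between libraries gave 17 higher and 8 lower in ARP1, and 42.8% of all ARP1 calls were then higher, against 62.5% without that scaling. The ARP1 median over the 43 genes was 0.10 with that scaling, and the medians were 0.66 in ANBL6BR, 0.12 in ANBL6, 0.37 in RPMI8226 and 0.67 in U266. Without DMSO replicate 2 the ANBL6 median was 0.09.

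**Figure D1:**
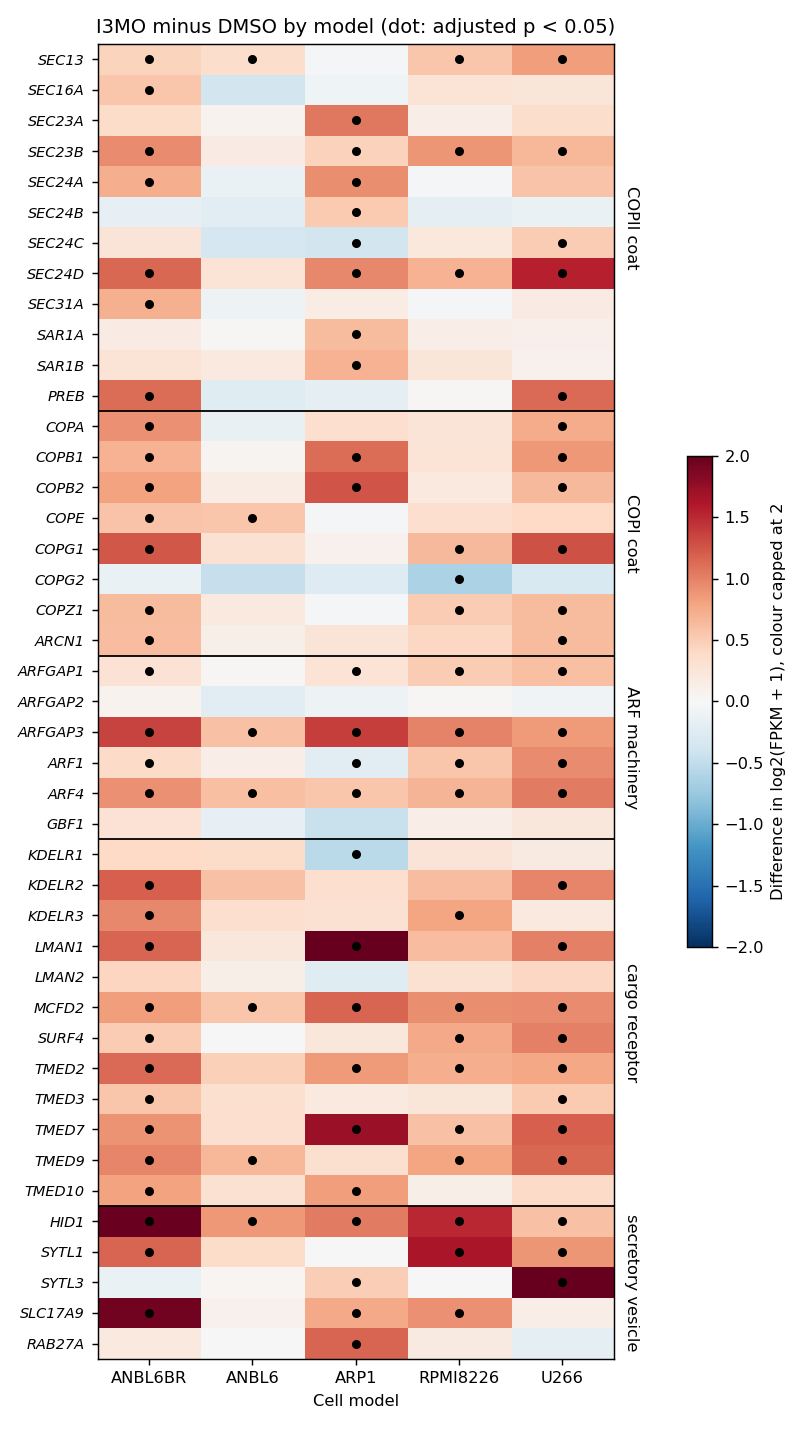
Difference in log2(FPKM + 1), I3MO minus DMSO, of the 43 tested traffic genes (rows, by class) in the 5 cell models (columns), with 2 libraries a group. Red is higher with I3MO, blue lower, the colour stops at 2, and a dot marks a limma adjusted p under 0.05, of which there are 31 in ANBL6BR, 7 in ANBL6, 24 in ARP1, 19 in RPMI8226 and 26 in U266.

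Counted by gene, 4 of the 43 rose in all 5 models: HID1, the ARF GTPase activator ARFGAP3, the GTPase ARF4 and MCFD2, the soluble partner of LMAN1. Another 7 rose in 4 models, 9 in 3, 10 in 2 and 8 in 1, and 5 rose in none. The 5 were the COPI subunit COPG2, ARFGAP2, the ARF exchange factor GBF1, KDELR1 and LMAN2. How many of all tested genes rose in each number of models was not counted, so these counts have no share to compare with. The responses of 27 of the 43 genes differed between the models (limma moderated F-test), where 44.5% of all tested genes did. Among protein-coding genes only, 30 of the 43 differed, where 61.1% of all did. When each model counted once, 5 against 5, no traffic gene was called by limma and no gene of the 15687 was either, the smallest adjusted p being 0.0918 in both sets. At an unadjusted p under 0.05 in that comparison, 30 traffic genes differed, 29 higher and 1 lower, where 16.9% of all genes differed. The median over the 43 genes was 0.42 there, and 0.01 over all genes, and 5 traffic genes were called when only protein-coding genes were tested, where 0.603% of all were.

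The letters before the gene starts were searched for 6 short motifs that stress and signal-dependent factors are known to bind, since many of these genes moved together. RefSeq promoters on GRCh38.p14, 250 bases before to 50 bases after the start, were matched for 37 of the 45 genes. No match was found for ARF4, ARFGAP1, HID1, KDELR2, SEC24D, SLC17A9, SYTL2 and TMED9. The UPRE core TGACGTGG, known as a site of the unfolded protein response factors ATF6 and XBP1, was found on either strand in 10 of the 37 (27%), against 0.795% of 27305 promoters. The 27305 promoters were not limited to protein-coding or expressed genes, and the 2 shares were not compared by a test. The 10 were ARF1, COPA, COPB1, COPB2, GBF1, KDELR3, SEC16A, SEC16B, SEC23A and SEC24A. The CARE letters TGATGCAA, known as a site of ATF4 with CEBP partners, were in SYTL1 alone, against 0.923% of all promoters. The CRE letters TGACGTCA, which share their first 6 letters with the UPRE core, were in 0 of the 37 (1.98% of all), and so were ERSE (0.0806%), ERSE-II (0.0549%) and the XRE letters TTGCGTG of the aryl hydrocarbon receptor (1.15%). The 250 bases before the start are shown for 2 COPI subunits, a COPII subunit, an ER retrieval receptor and ARF1, which hold the UPRE core there, and for SYTL1, because these genes rose in 2 or more models. COPA also rose in 2, but its match lies after the start. Positions are COPB1 chr11:14499812-14500061 and COPB2 chr3:139389681-139389930 on the minus strand, and SEC24A chr5:134648535-134648784, KDELR3 chr22:38467846-38468095, ARF1 chr1:228082458-228082707 and SYTL1 chr1:27341772-27342021 on the plus strand. Each is written 5′ to 3′ toward the gene, with the UPRE core in capitals in the first 5 (as written or as its reverse complement) and CARE in capitals in SYTL1.
COPB1: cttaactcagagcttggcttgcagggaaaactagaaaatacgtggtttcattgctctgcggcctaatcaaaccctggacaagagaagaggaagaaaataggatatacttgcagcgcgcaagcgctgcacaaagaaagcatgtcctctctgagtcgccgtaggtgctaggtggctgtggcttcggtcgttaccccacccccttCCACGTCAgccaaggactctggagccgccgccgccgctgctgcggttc
COPB2: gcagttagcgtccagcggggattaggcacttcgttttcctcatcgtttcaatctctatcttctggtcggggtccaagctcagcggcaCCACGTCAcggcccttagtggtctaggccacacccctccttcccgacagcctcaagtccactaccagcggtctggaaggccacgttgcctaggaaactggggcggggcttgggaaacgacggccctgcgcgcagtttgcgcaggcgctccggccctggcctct
SEC24A: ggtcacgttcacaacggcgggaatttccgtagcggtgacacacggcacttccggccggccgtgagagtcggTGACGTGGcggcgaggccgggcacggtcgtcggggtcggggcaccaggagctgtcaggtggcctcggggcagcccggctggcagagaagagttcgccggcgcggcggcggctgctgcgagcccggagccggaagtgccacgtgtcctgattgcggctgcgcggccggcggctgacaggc
KDELR3: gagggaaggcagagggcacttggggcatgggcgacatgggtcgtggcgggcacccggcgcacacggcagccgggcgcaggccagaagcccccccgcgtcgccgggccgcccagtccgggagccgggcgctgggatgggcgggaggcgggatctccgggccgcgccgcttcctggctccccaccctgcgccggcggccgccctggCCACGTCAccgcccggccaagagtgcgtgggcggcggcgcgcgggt
ARF1: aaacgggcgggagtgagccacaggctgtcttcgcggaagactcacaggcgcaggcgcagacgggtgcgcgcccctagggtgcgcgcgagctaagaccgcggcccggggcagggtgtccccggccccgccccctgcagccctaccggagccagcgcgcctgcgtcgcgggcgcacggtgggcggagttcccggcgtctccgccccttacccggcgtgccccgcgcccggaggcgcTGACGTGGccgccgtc
SYTL1: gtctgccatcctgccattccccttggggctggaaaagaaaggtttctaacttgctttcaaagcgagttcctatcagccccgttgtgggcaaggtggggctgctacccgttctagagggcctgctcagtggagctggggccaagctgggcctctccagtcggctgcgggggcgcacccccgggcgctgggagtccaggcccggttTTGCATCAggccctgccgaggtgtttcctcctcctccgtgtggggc
Genes with and without the UPRE core both rose with I3MO. In ANBL6BR 7 of 9 tested genes with it rose and 17 of 27 without it, and in U266 4 of 9 with it and 16 of 27 without it. In ARP1 4 of 9 with it rose and 12 of 27 without it, in RPMI8226 2 of 9 and 10 of 27, and in ANBL6 0 of 9 and 4 of 27. The difference between the 2 sets was not tested, and a match is only a run of letters in this window. Neither set holds the unmatched genes, many of which rose in most models. Of them ARF4 and HID1 rose in 5 models, ARFGAP1, SEC24D and TMED9 in 4, SLC17A9 in 3 and KDELR2 in 2, and SYTL2 was not tested.

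Among COPII genes, 7 of 12 tested rose in ANBL6BR, 1 in ANBL6, 7 in ARP1 (1 fell), 3 in RPMI8226 and 5 in U266. SEC24D, 1 of 4 SEC24 genes whose products pick up cargo in the inner coat, had the smallest adjusted p of the class in ANBL6BR, ARP1 and U266. It had 14.8 and 13.7 FPKM in I3MO libraries of ANBL6BR against 6.31 and 5.49 FPKM in DMSO libraries, a difference of 1.15 ± 0.1 (limma adjusted p = 2.54e-05). In ARP1 it had 11.4 and 10.5 FPKM with I3MO against 5.09 and 5.17 FPKM with DMSO, by 0.96 ± 0.1 (limma adjusted p = 3.08e-05). In U266 it had 4.94 and 4.96 FPKM with I3MO against 0.949 and 1.1 FPKM with DMSO, by 1.56 ± 0.1 (limma adjusted p = 5.02e-07), 4.83 times as high by means. All I3MO libraries of these models lay well above their DMSO libraries. In RPMI8226 SEC24D rose to 3.55 and 3.92 FPKM with I3MO, against 1.91 and 1.91 FPKM with DMSO, and in ANBL6, at 7.11 and 6.02 FPKM with I3MO and 5.93 and 4.68 FPKM with DMSO, it did not pass (0.27 ± 0.1, limma adjusted p = 0.139).

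The other SEC24 genes differed from SEC24D in where they moved. SEC24A rose in ANBL6BR, with 28.8 and 28.5 FPKM in I3MO libraries against 20.6 and 13.8 FPKM in DMSO libraries, and in ARP1, with 11.3 and 8.96 FPKM against 4.12 and 5.54 FPKM. Its ANBL6BR value was 0.73 ± 0.23 (limma adjusted p = 0.0431) and 0.46 (limma adjusted p = 0.3) without DMSO replicate 2, and its ARP1 call ended without DMSO replicate 1 or I3MO replicate 1 (limma adjusted p up to 0.0717). SEC24B rose in ARP1 alone of the 5 models, by 0.52 ± 0.18 (limma adjusted p = 0.036), a call that ended without DMSO replicate 1 or either I3MO library (limma adjusted p up to 0.252). SEC24C was 1 of 3 traffic genes that fell in ARP1, with 8.65 and 7.31 FPKM in I3MO libraries against 11.3 and 9.76 FPKM in DMSO libraries (-0.36 ± 0.13, limma adjusted p = 0.0422), and it rose in U266 by 0.50 ± 0.13 (limma adjusted p = 0.012). Both SEC24C calls ended without 1 library, the ARP1 call without DMSO replicate 1 (limma adjusted p = 0.255) or I3MO replicate 2 (limma adjusted p = 0.251). Of the exon bases of SEC24C, 42.9% are shared with another annotated gene, so its fragments are uncertain.

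SEC23B, the inner coat subunit that activates SAR1 GTP hydrolysis, rose in ANBL6BR, ARP1, RPMI8226 and U266, by 0.46 to 0.94. Its paralogue SEC23A rose in ARP1, with 5.29 and 4.14 FPKM in I3MO libraries against 1.41 and 2.07 FPKM in DMSO libraries (1.06 ± 0.15, limma adjusted p = 0.000181), and passed in no other model. SEC13, a subunit of the outer cage, rose in the 4 models other than ARP1, by 0.35 to 0.83. SEC31A, its partner in the cage, and SEC16A, the scaffold of ER exit sites, rose in ANBL6BR by 0.71 ± 0.09 and 0.55 ± 0.11 (limma adjusted p = 0.000262 and 0.00464). The SAR1 GTPase genes SAR1A and SAR1B rose in ARP1, by 0.63 ± 0.09 and 0.70 ± 0.15 (limma adjusted p = 0.000305 and 0.00277).

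PREB, the exchange factor that loads SAR1 with GTP at the ER, was higher with I3MO in 2 of the 5 models. It had 39.4 and 43 FPKM in I3MO libraries of ANBL6BR against 23.9 and 14.3 FPKM in DMSO libraries, by 1.11 ± 0.17 (limma adjusted p = 0.000805). In U266 it had 33.2 and 29.5 FPKM with I3MO against 13.9 and 13.4 FPKM with DMSO, by 1.14 ± 0.17 (limma adjusted p = 0.000315). In RPMI8226, where its DMSO level was the highest of the models, PREB had 47.1 and 46.9 FPKM with I3MO and 46.6 and 46.2 FPKM with DMSO. It did not pass in ANBL6 (-0.25 ± 0.17, limma adjusted p = 0.443) or ARP1 (-0.20 ± 0.17, limma adjusted p = 0.411).

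The 8 COPI coat genes encode the coatomer, which is recruited to membranes as 1 complex. Of them 7 rose in ANBL6BR, 6 in U266, 2 each in ARP1 and RPMI8226 (where 1 fell) and 1 in ANBL6. COPG1, which encodes the gamma subunit, had 45.2 and 48.2 FPKM in I3MO libraries of ANBL6BR against 26.2 and 14.1 FPKM in DMSO libraries (1.24 ± 0.19, limma adjusted p = 0.00093, and 0.81 without DMSO replicate 2). In U266 it had 44.9 and 52.1 FPKM with I3MO against 19.1 and 19.5 FPKM with DMSO (1.28 ± 0.19, limma adjusted p = 0.00035). COPG2 encodes the alternative gamma subunit and moved the other way in RPMI8226, with 0.366 and 0.315 FPKM in I3MO libraries against 1.11 and 1.02 FPKM in DMSO libraries. That fall of 0.63 ± 0.13 on the log2 scale (limma adjusted p = 0.00661) was the single fall among traffic genes in RPMI8226, and its adjusted p was 0.05 without I3MO replicate 2. The difference for COPG2 was negative in all 5 models and passed in RPMI8226 only. The 2 genes stood at 96.2 FPKM (COPG1) and 5.4 FPKM (COPG2) per merged exon length, as medians over the libraries.

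COPB1 and COPB2, the beta and beta' subunits whose promoters are shown above, rose in ANBL6BR, ARP1 and U266, and their ANBL6BR calls ended without DMSO replicate 2 or either I3MO library (limma adjusted p up to 0.105). The COPB2 call in U266 ended without DMSO replicate 1 (limma adjusted p = 0.157) or I3MO replicate 1 (limma adjusted p = 0.128). COPB2 had 14.5 and 14.1 FPKM in I3MO libraries of ARP1 against 3.92 and 7.28 FPKM in DMSO libraries, by 1.26 ± 0.19 (limma adjusted p = 0.000326). COPB1 had 11.8 and 10.1 FPKM against 3.6 and 5.65 FPKM there, by 1.11 ± 0.17 (limma adjusted p = 0.000387). COPA (alpha subunit) and ARCN1 (delta subunit) rose in ANBL6BR and U266, by 0.62 to 0.91, and the ARCN1 value in U266 was 0.41 without I3MO replicate 2. COPZ1 (zeta subunit) rose in ANBL6BR, RPMI8226 and U266, and COPE (epsilon subunit) in ANBL6BR and ANBL6, by 0.57 ± 0.15 and 0.56 ± 0.15 (limma adjusted p = 0.019 and 0.0409). The COPZ1 call in RPMI8226 ended without DMSO replicate 1 or either I3MO library. The COPE call in ANBL6 ended without any 1 of the 4 ANBL6 libraries, and in ANBL6BR the COPE value was 0.32 (limma adjusted p = 0.155) without DMSO replicate 2.

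Among ARF genes, 4 of 6 rose in ANBL6BR, RPMI8226 and U266, 2 in ANBL6 and 3 in ARP1, where 1 fell. ARFGAP3, whose product ends the ARF1 cycle on COPI vesicles, had 20.7 and 20.7 FPKM in I3MO libraries of ANBL6BR against 8.99 and 6.24 FPKM in DMSO libraries (1.35 ± 0.16, limma adjusted p = 0.000161). In ARP1 it had 16.5 and 17 FPKM with I3MO against 5.23 and 6.39 FPKM with DMSO (1.39 ± 0.16, limma adjusted p = 5.08e-05). It rose by 0.99 ± 0.16 in RPMI8226 and 0.85 ± 0.16 in U266 (limma adjusted p = 0.00121 and 0.00169), and the groups did not overlap in any model. In ANBL6, with 16.1 and 14.8 FPKM in I3MO libraries against 11 and 9.13 FPKM in DMSO libraries, the adjusted p was 0.0455 by limma, and the call ended without any 1 of the 4 libraries (limma adjusted p up to 0.289). ARFGAP1 rose in 4 models by 0.28 to 0.60, and ARFGAP2 passed in none. The ARFGAP1 call in ARP1 ended without any 1 of the 4 libraries (limma adjusted p up to 0.0992) and with median-ratio scaling (0.10), and the call in ANBL6BR ended without DMSO replicate 1 or either I3MO library (limma adjusted p up to 0.196).

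ARF4, a GTPase that acts beside ARF1 early in the pathway, rose in all 5 models. It had 35.3 and 35.9 FPKM in I3MO libraries of ANBL6 against 24.6 and 21.7 FPKM in DMSO libraries (0.60 ± 0.12, limma adjusted p = 0.0106), a call that ended without DMSO replicate 2 (limma adjusted p = 0.11) or I3MO replicate 2 (limma adjusted p = 0.0757). The rises in the other models were 0.92 in ANBL6BR, 0.55 in ARP1, 0.68 in RPMI8226 and 1.04 in U266, each ± 0.12. ARF1 moved in opposite directions between models. In U266 it had 82.7 and 83.1 FPKM with I3MO against 42.6 and 41.9 FPKM with DMSO (0.95 ± 0.09, limma adjusted p = 5.69e-06). In ARP1 it had 66.7 and 73.4 FPKM with I3MO against 87.9 and 77.3 FPKM with DMSO (-0.23 ± 0.09, limma adjusted p = 0.0492), a call that ended without DMSO replicate 1 (limma adjusted p = 0.339) or I3MO replicate 1 (limma adjusted p = 0.305). The responses of ARF1 differed between the 5 models (limma moderated F-test, adjusted p = 0.000192), and those of ARF4 did not pass (adjusted p = 0.106).

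**Figure D2:**
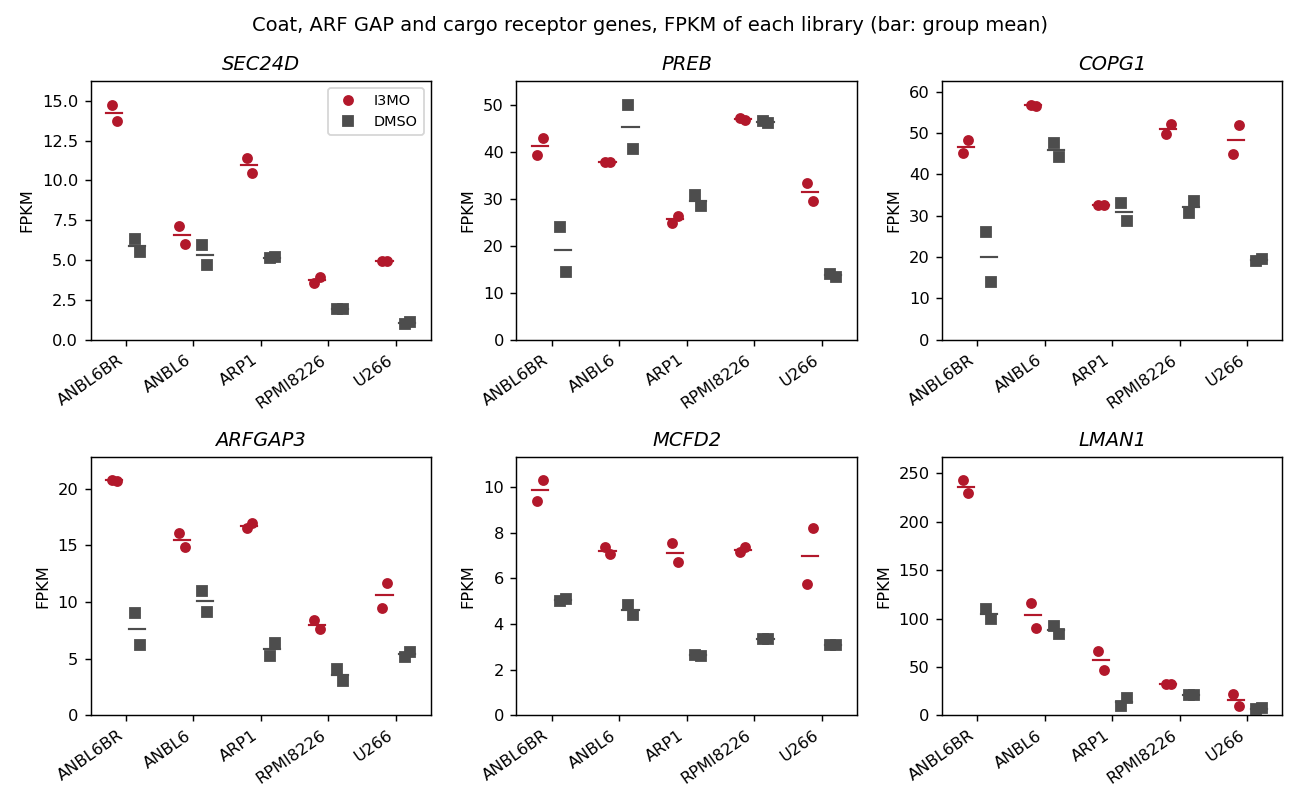
FPKM of every library for 6 coat, ARF and cargo receptor genes in the 5 cell models (x axis), with I3MO libraries as red circles to the left of DMSO libraries as grey squares and a bar at each group's mean of 2. MCFD2, ARFGAP3 and SEC24D have every I3MO library above the DMSO libraries in all 5 models, whereas PREB has that in ANBL6BR, RPMI8226 and U266, with a gap under 1 FPKM in RPMI8226.

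Of the 12 cargo receptor genes, 10 rose in ANBL6BR, 8 in U266, 6 in RPMI8226, 5 in ARP1 (1 fell) and 2 in ANBL6. LMAN1 and MCFD2 form a receptor complex that carries coagulation factors and other glycoproteins out of the ER. MCFD2 had 7.55 and 6.71 FPKM in I3MO libraries of ARP1 against 2.65 and 2.61 FPKM in DMSO libraries (1.16 ± 0.11, limma adjusted p = 1.65e-05). In RPMI8226 it had 7.17 and 7.37 FPKM with I3MO against 3.33 and 3.36 FPKM with DMSO (0.93 ± 0.11, limma adjusted p = 0.000165). In ANBL6 it had 7.36 and 7.09 FPKM with I3MO against 4.82 and 4.42 FPKM with DMSO (0.55 ± 0.11, limma adjusted p = 0.0122), a call that ended without DMSO replicate 2 (limma adjusted p = 0.11) or I3MO replicate 2 (limma adjusted p = 0.0672). MCFD2 also rose by 0.84 in ANBL6BR and 0.95 in U266, and the test of equal responses in the 5 models did not pass (limma moderated F-test, adjusted p = 0.0646).

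LMAN1 had 66.9 and 47 FPKM in I3MO libraries of ARP1 against 9.55 and 17.7 FPKM in DMSO libraries, 4.17 times as high by means and a difference of 2.02 ± 0.31 (limma adjusted p = 0.00036). In ANBL6BR it had 243 and 229 FPKM with I3MO against 110 and 99.5 FPKM with DMSO (1.17 ± 0.31, limma adjusted p = 0.0201). The ANBL6BR groups lay far apart, yet the call ended without DMSO replicate 2 (limma adjusted p = 0.0894), and without either I3MO library. In U266 LMAN1 had 21.7 and 9.92 FPKM with I3MO against 6.24 and 7.6 FPKM with DMSO, and its rise of 1.0 ± 0.31 (limma adjusted p = 0.0313) was 0.47 (limma adjusted p = 0.272) without I3MO replicate 1 and 1.53 (limma adjusted p = 0.00272) without I3MO replicate 2. LMAN1 did not pass in ANBL6 or RPMI8226, and LMAN2, a related lectin, passed in none.

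The p24 receptor genes TMED2, TMED7 and TMED9 each rose in 4 of the 5 models, and TMED3 and TMED10 in 2. In RPMI8226 the TMED7 call ended without any 1 of the 4 libraries, and the TMED9 call without DMSO replicate 2 or I3MO replicate 1. Both TMED3 calls, in ANBL6BR and U266, ended without single libraries. Its ANBL6BR difference went from 0.55 to 0.24 without DMSO replicate 2. TMED7 had 17.8 and 15.3 FPKM in I3MO libraries of ARP1 against 3.61 and 5.12 FPKM in DMSO libraries (1.72 ± 0.17, limma adjusted p = 1.65e-05). Of its exon bases 24% are shared with another annotated gene. TMED9 had 99.6 and 119 FPKM in I3MO libraries of ANBL6 against 73.8 and 63 FPKM in DMSO libraries (0.66 ± 0.16, limma adjusted p = 0.0289), a call that ended without either DMSO library or I3MO replicate 2 (limma adjusted p up to 0.227). TMED9 missed the threshold in ARP1 only, and TMED2 in ANBL6 only (limma adjusted p = 0.0538).

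SURF4, a receptor for soluble cargo such as lipoproteins, rose in ANBL6BR, RPMI8226 and U266. It had 32.1 and 31.3 FPKM in I3MO libraries of RPMI8226 against 17.4 and 19.5 FPKM in DMSO libraries (0.75 ± 0.09, limma adjusted p = 0.000154). In U266 it had 13.8 and 14.9 FPKM with I3MO against 6.47 and 6.75 FPKM with DMSO (1.01 ± 0.09, limma adjusted p = 6.24e-06). Both pairs of groups were far apart relative to the gap between their replicates.

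The 3 KDEL receptor genes, whose products return ER chaperones from the Golgi, did not move together. KDELR2 rose in ANBL6BR, with 73.8 and 81.2 FPKM in I3MO libraries against 45.9 and 24.2 FPKM in DMSO libraries (1.19 ± 0.23, limma adjusted p = 0.0036, and 0.74 without DMSO replicate 2). It also rose in U266, by 0.98 ± 0.23 (limma adjusted p = 0.00692). The U266 difference was 0.78 without I3MO replicate 2, where the call ended. KDELR3 rose in ANBL6BR by 0.96 ± 0.14 and in RPMI8226 by 0.79 ± 0.14 (limma adjusted p = 0.000527 and 0.00203). KDELR1 rose in none and fell in ARP1, with 77 and 84.8 FPKM in I3MO libraries against 128 and 108 FPKM in DMSO libraries (-0.54 ± 0.19, limma adjusted p = 0.0467), a call that ended without any 1 of the 4 ARP1 libraries (limma adjusted p up to 0.255).

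The secretory vesicle genes held the largest I3MO difference of the 43 genes, that of SYTL3 in U266. Each of the 5 tested differed in response between the models (limma moderated F-test), and so did 9 of 12 COPII genes. Of all tested genes 44.5% did, and 61.1% when only protein-coding genes were tested. Of the 5, 3 rose in ANBL6BR, 1 in ANBL6, 4 in ARP1, 3 in RPMI8226 and 3 in U266. HID1 had 5.32 and 6.16 FPKM in I3MO libraries of ANBL6BR against 1.14 and 0.374 FPKM in DMSO libraries, 7.58 times as high by means (1.97 ± 0.17, limma adjusted p = 1.97e-05). In ANBL6 it had 9.69 and 9.13 FPKM with I3MO against 5.58 and 3.91 FPKM with DMSO (0.87 ± 0.17, limma adjusted p = 0.00943), a call that ended without DMSO replicate 2 (limma adjusted p = 0.109) or I3MO replicate 2 (limma adjusted p = 0.0571). The I3MO libraries of both models lay above all of their DMSO libraries. In ARP1 HID1 had 3.53 and 3.44 FPKM with I3MO against 1.25 and 1.12 FPKM with DMSO (1.04 ± 0.17, limma adjusted p = 0.00055). In RPMI8226 it had 18.8 and 19.9 FPKM with I3MO against 6.07 and 6.19 FPKM with DMSO (1.51 ± 0.17, limma adjusted p = 9.14e-05). RPMI8226 with I3MO held the highest HID1 level of the study. In U266 HID1 had 0.615 and 0.512 FPKM with I3MO, recovered as 148 and 137 fragments, against 0.0623 and 0.0317 FPKM with DMSO, or 14 and 8 fragments. The U266 ratio of means was 12, but the 1 added to FPKM makes it 0.58 ± 0.17 (limma adjusted p = 0.0241), and the call ended without any 1 of the 4 libraries (limma adjusted p up to 0.108).

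SYTL1, which links RAB27 vesicles to membranes, had 5.9 and 5.77 FPKM in I3MO libraries of RPMI8226 against 1.22 and 1.21 FPKM in DMSO libraries, 4.81 times as high by means (1.63 ± 0.14, limma adjusted p = 1.08e-05). In ANBL6BR it had 6.55 and 9.64 FPKM with I3MO against 2.53 and 3.5 FPKM with DMSO (1.17 ± 0.14, limma adjusted p = 0.000161). In U266 it had 3.46 and 3.06 FPKM with I3MO against 1.32 and 1.28 FPKM with DMSO (0.89 ± 0.14, limma adjusted p = 0.000458). SYTL1 thus rose in 3 models, with every I3MO library above both DMSO libraries. In ANBL6 it had 1.17 and 1.04 FPKM with I3MO and 0.574 and 0.689 FPKM with DMSO and did not pass (0.37 ± 0.14, limma adjusted p = 0.129). In ARP1 it was listed at 0 in both I3MO libraries and in DMSO replicate 1, with 2 fragments in DMSO replicate 2, below the 3 fragments that a count of 0 allows.

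SYTL3, a relative of SYTL1, had its highest level in U266 and the smallest adjusted p of the traffic genes there. It had 26.9 and 28.7 FPKM in I3MO libraries of U266 against 3.65 and 3.73 FPKM in DMSO libraries, 7.53 times as high by means (2.62 ± 0.09, limma adjusted p = 2.78e-09). In ARP1 it had 0.602 and 0.877 FPKM with I3MO against 0.28 and 0.189 FPKM with DMSO (0.49 ± 0.09, limma adjusted p = 0.00137). In ANBL6BR it had 0.826 and 1.05 FPKM with I3MO and 1.2 and 1.08 FPKM with DMSO, in the opposite order. That difference did not pass (-0.14 ± 0.09, limma adjusted p = 0.366). In ANBL6 the values were 0.412 and 0.381 FPKM with I3MO and 0.433 and 0.293 FPKM with DMSO, and in RPMI8226 they were 0.107 and 0.0182 FPKM with I3MO and 0.0844 and 0.0526 FPKM with DMSO. SYTL2 stayed near 0, with its highest value of 0.0314 FPKM (29 fragments) in ARP1 I3MO replicate 1.

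SLC17A9 loads ATP into secretory vesicles. It had 16.2 and 17.7 FPKM in I3MO libraries of ANBL6BR against 5.67 and 2.31 FPKM in DMSO libraries, 4.25 times as high by means (1.93 ± 0.22, limma adjusted p = 0.000115). In RPMI8226 it had 10.2 and 10.5 FPKM with I3MO against 4.96 and 4.97 FPKM with DMSO (0.92 ± 0.22, limma adjusted p = 0.0126). In ARP1 it had 6.38 and 6.47 FPKM with I3MO against 3.32 and 3.47 FPKM with DMSO (0.76 ± 0.22, limma adjusted p = 0.0162). The RPMI8226 and ARP1 replicates lay close together, yet both calls ended without any 1 of their 4 libraries (limma adjusted p 0.0641 to 0.0732 in RPMI8226 and 0.0511 to 0.0801 in ARP1), where the spread is shared with all 10 groups. In ANBL6 SLC17A9 had 9.12 and 8.62 FPKM with I3MO and 9.1 and 7.68 FPKM with DMSO, and in U266 it had 0.192 and 0.128 FPKM with I3MO and 0.0441 and 0.0568 FPKM with DMSO, and neither passed.

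RAB27A, the GTPase that docks these vesicles, rose in ARP1 alone of the 5 models. It had 9.86 and 9.72 FPKM in I3MO libraries of ARP1 against 3.28 and 4.38 FPKM in DMSO libraries, 2.56 times as high by means (1.17 ± 0.12, limma adjusted p = 2.76e-05). In ANBL6BR it had 11.1 and 13.5 FPKM with I3MO and 11.5 and 9.56 FPKM with DMSO, groups that overlapped. The differences were 0.20 ± 0.12 in ANBL6BR, 0.00 ± 0.12 in ANBL6, 0.18 ± 0.12 in RPMI8226 and -0.20 ± 0.12 in U266, and none of these passed. In ANBL6 the libraries had 6.05 and 5.39 FPKM with I3MO and 6.08 and 5.41 FPKM with DMSO, in RPMI8226 2.63 and 2.59 FPKM with I3MO and 2.21 and 2.15 FPKM with DMSO, and in U266 4.89 and 4.14 FPKM with I3MO and 5.34 and 5.27 FPKM with DMSO.

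**Figure D3:**
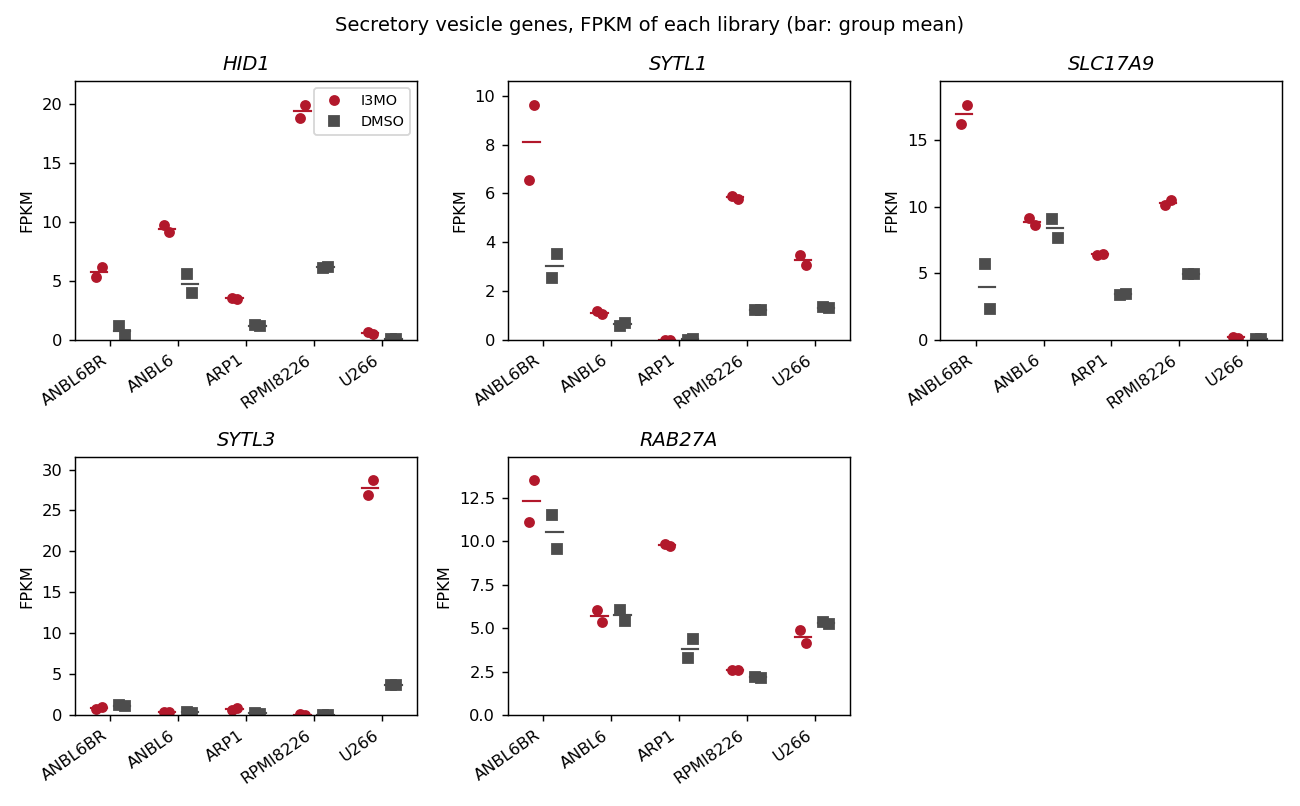
FPKM of every library for the 5 tested secretory vesicle genes in the 5 cell models (x axis), with I3MO libraries as red circles to the left of DMSO libraries as grey squares and a bar at each group's mean of 2. HID1 is highest in the RPMI8226 I3MO libraries (18.8 and 19.9 FPKM), SYTL3 stands out in U266 and RAB27A differs between treatments in ARP1.

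ANBL6BR and ANBL6 received the same dose, so their responses could be compared directly. The I3MO response was larger in ANBL6BR for 10 of the 43 genes and smaller for 0, where 8.47% of all tested genes differed, 4.14% with the larger response in ANBL6BR and 4.33% with the smaller. The 10 were the COPII genes SEC16A, SEC23B, SEC24D, SEC31A and PREB, the COPI gene COPA, the receptor SURF4 and the vesicle genes HID1, SYTL1 and SLC17A9. In DMSO, SEC16A, SEC23B, SEC31A, PREB, COPA, SURF4, HID1 and SLC17A9 were called lower in ANBL6BR than in ANBL6, and SYTL1 higher. With I3MO the ANBL6BR and ANBL6 means were close for SEC31A (3.8 and 3.77 FPKM) and PREB (41.2 and 37.8 FPKM). They were not for SLC17A9 (17 and 8.87 FPKM) or SEC24D (14.2 and 6.57 FPKM). The part of the DMSO level in the larger responses was not tested. The difference between the responses was 1.86 ± 0.31 for SLC17A9 (limma adjusted p = 0.00412), from 1.93 in ANBL6BR and 0.08 in ANBL6. For PREB it was 1.36 ± 0.24 (limma adjusted p = 0.00589), with 1.11 in ANBL6BR and -0.25 in ANBL6, and for COPA 1.06 ± 0.18 (limma adjusted p = 0.00404), with 0.91 in ANBL6BR and -0.15 in ANBL6. Over the 43 genes the median difference was 0.51, and over all genes 0. Among protein-coding genes only, 15 were called, where 13.5% of all were. The median was 0.63 without ANBL6BR DMSO replicate 1, 0.36 without ANBL6BR DMSO replicate 2 and 0.53 without ANBL6BR I3MO replicate 2. It was 0.45 without ANBL6 DMSO replicate 1 and 0.46 without ANBL6 I3MO replicate 2. The calls of SEC16A, SEC24D, SEC31A, PREB, COPA and SLC17A9 were kept under every alternative run, and those of the other 4 were not. The spread from only the groups compared was not among the alternatives run for this difference. For the I3MO responses themselves that setting left 0 calls in ANBL6BR and 0 in ANBL6.

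**Figure D4:**
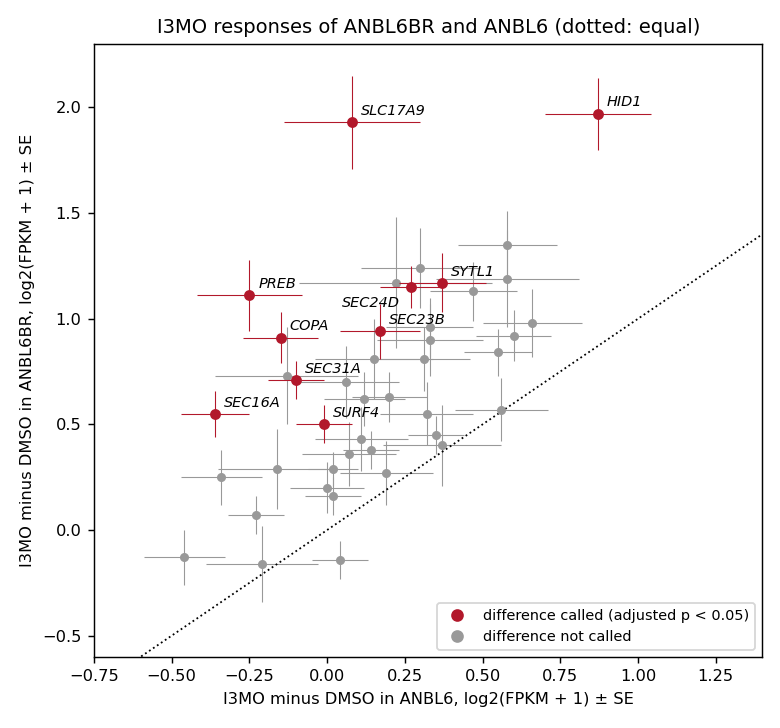
I3MO response, as the difference in log2(FPKM + 1) ± SE, in ANBL6BR (y axis) against ANBL6 (x axis) for the 43 tested traffic genes, with a dotted line where both are equal. Red points are the 10 genes whose responses differed (limma adjusted p under 0.05), and all 10 lie above the line, SLC17A9 farthest from it.

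In DMSO, 29 of the 43 genes differed between ANBL6BR and ANBL6, 14 higher and 15 lower in ANBL6BR, where 51.8% of all tested genes differed, 27% higher and 24.8% lower. Among protein-coding genes only, 30 of the 43 differed, where 64.6% of all did. All 5 tested vesicle genes differed. SYTL1, RAB27A and SYTL3 were higher in ANBL6BR, by 1.29 ± 0.14, 0.77 ± 0.12 and 0.65 ± 0.09 (limma adjusted p = 4.85e-06, 0.000166 and 6.12e-05). HID1 and SLC17A9 were lower in ANBL6BR, by -1.73 ± 0.17 and -1.0 ± 0.22 (limma adjusted p = 2.21e-06 and 0.00182), and SLC17A9 by -0.49 without ANBL6BR DMSO replicate 2. Coat genes split as well: PREB differed by -1.24 ± 0.17, COPG1 by -1.21 ± 0.19 (-0.79 without ANBL6BR DMSO replicate 2) and COPB2 by -1.16 ± 0.19, whereas ARCN1 differed by 0.86 ± 0.13 and SAR1A by 0.74 ± 0.09, each called by limma. ARF1 differed by -0.90 ± 0.09 and the ARF exchange factor GBF1 by 0.82 ± 0.19 (0.46 without ANBL6BR DMSO replicate 2). This comparison and the I3MO response of ANBL6BR share the ANBL6BR DMSO libraries. With the spread from the 4 libraries alone, 11 of the 43 were called, where 38.4% of all genes were, so the share of traffic genes was then below that of all genes.

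The ANBL6BR DMSO libraries were therefore also viewed one at a time. Relative to the mean of the 2 I3MO libraries, the median over the 43 genes was -0.55 in DMSO replicate 1 and -0.83 in DMSO replicate 2, and 40 and 38 genes lay below that mean. How many of all tested genes lay below it was not counted, so these counts have no share to compare with. With only 1 DMSO library kept, the median I3MO difference over the 43 genes was 0.55 (replicate 1 kept) or 0.83 (replicate 2 kept). Keeping both DMSO libraries and a single I3MO library gave a median of 0.74 (replicate 1 kept) or 0.67 (replicate 2 kept).

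**Figure D5:**
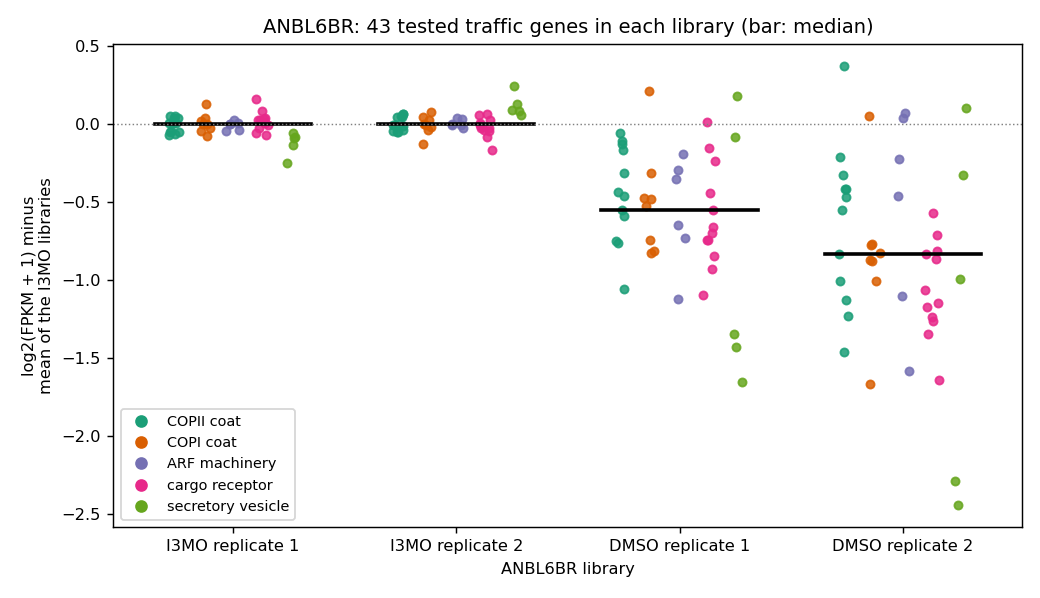
log2(FPKM + 1) of the 43 tested traffic genes in each ANBL6BR library (x axis, I3MO left of DMSO), minus the gene's mean in the 2 I3MO libraries, coloured by class, with a black bar at the median. The DMSO medians are -0.55 in replicate 1 and -0.83 in replicate 2, and the vesicle genes HID1 and SLC17A9 are the 2 lowest points in replicate 2.

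Genes of the same pathway outside the 45 moved in both directions. The list held 85, namely ER export and tethering factors, the TRAPP complex, ER and Golgi SNAREs, granule exocytosis genes and regulators of secretory genes, of which 72 were tested. In ANBL6BR 28 rose and 3 fell, in ANBL6 5 and 2, in ARP1 27 and 13, in RPMI8226 16 and 6, and in U266 19 and 4. The called share of the 72 was 43.1% in ANBL6BR (18.4% of all genes), 9.72% in ANBL6 (7.97%), 55.6% in ARP1 (37%), 30.6% in RPMI8226 (14.8%) and 31.9% in U266 (26.2%), and in ANBL6 and U266 it was near that of all genes with both directions together. By direction, 19 of the 72 rose and 4 fell in U266, where 10.5% of all genes were called higher and 15.8% lower. The median difference of the 72 was 0.21 in ANBL6BR, 0.05 in ANBL6, 0.09 in ARP1, 0.12 in RPMI8226 and 0.18 in U266. Whether the 2 lists differ was not tested. Of 13 tested SNARE genes 7 rose in ANBL6BR, with the Golgi SNARE BET1L up 0.91 ± 0.09 (limma adjusted p = 4.37e-05), while none of the 6 tested granule exocytosis genes passed there.

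Among the regulators, ATF4, the transcription factor of the integrated stress response, rose in all 5 models, by 0.38 ± 0.1 in ANBL6BR, 0.74 ± 0.1 in ANBL6, 0.97 ± 0.1 in ARP1, 0.80 ± 0.1 in RPMI8226 and 1.31 ± 0.1 in U266. CREB3, a factor held in the ER membrane and cleaved at the Golgi, rose in 4 models and fell in ARP1. It averaged 28.8 FPKM with I3MO against 10.6 FPKM with DMSO in U266 (1.35 ± 0.09, limma adjusted p = 5.02e-07), and 15 FPKM against 6.2 FPKM in ANBL6BR (1.16 ± 0.09, limma adjusted p = 9.64e-06). In ARP1 it averaged 9.65 FPKM with I3MO and 12.3 FPKM with DMSO (-0.32 ± 0.09, limma adjusted p = 0.0143). Its relative CREB3L1 fell in ANBL6 by 0.32 ± 0.09 on the log2 scale (limma adjusted p = 0.0468). ATF6 rose in ARP1 by 0.82 ± 0.14 (limma adjusted p = 0.000927) and passed with I3MO in no other model.

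Other changes in that list were scattered over its classes. The p24 gene TMED5 rose in ARP1 by 1.58 ± 0.15 (limma adjusted p = 1.56e-05), while TMED8 fell in U266 by 1.5 ± 0.2 and TMED1 in ANBL6BR by 0.76 ± 0.14 on the log2 scale (limma adjusted p = 0.000125 and 0.00255). The ER SNARE gene USE1 fell in ARP1 and RPMI8226, by 0.73 ± 0.12 and 0.54 ± 0.12 (limma adjusted p = 0.000538 and 0.00882). RAB3A, a GTPase of granule exocytosis, fell in U266 and ARP1, by 0.79 ± 0.1 and 0.56 ± 0.1 (limma adjusted p = 8.36e-05 and 0.000885). BCAP31, an ER export factor, fell in ANBL6BR by 0.57 ± 0.12, YIF1A in RPMI8226 by 0.57 ± 0.13 and the TRAPP subunit TRAPPC10 in ANBL6 by 0.55 ± 0.1 (limma adjusted p = 0.00671, 0.00931 and 0.00672).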

How the data were processed

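RNA was sequenced from 20 libraries, 2 for each of 10 groups. The authors deposited 1 table of FPKM (fragments scaled by exon length and library total). Per the submitters' processing notes, Trimmomatic 0.32 and 0.36, STAR and SAMtools were used with hg38, and the counting tool and annotation are not given in the sources used here. The length behind the deposited FPKM, recovered from their steps, equalled the summed exon length of all transcripts of the gene in the annotation used here for 38 of the 45 genes and differed from it for the other 7, so the authors' length basis is inferred and not known. Levels of different genes were compared only after rescaling to merged exon length. Whole fragments were recovered from the FPKM steps, within 0.02 of a whole number for 100% of single-exon values, and library totals and floors of 3 fragments rest on them. These cover counting error only.

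Genes with at least 1 FPKM in at least 2 libraries were tested on log2(FPKM + 1) with limma 3.58.1 in R 4.3.3, on 10 group means with a trended prior, so all groups share 1 estimate of the spread. The test is two-sided, with Benjamini-Hochberg adjustment over all 15687 tested genes and a threshold of 0.05. A difference on this scale understates the change of low genes. The comparison across models used 5 against 5 group means with model as a block. The fit was tested on simulated data. The members and the lists were chosen with earlier results of these data known. Values by library are given for the 6 vesicle genes and for the 4 traffic genes with the smallest adjusted p in each direction of each I3MO comparison, where called, and of the other genes of the pathway the 2 with the smallest adjusted p in each direction were named. SEC24A, SEC24B, SEC23A, PREB, COPG1, COPB1, COPB2, COPE, ARFGAP3 in further models, LMAN1, KDELR2, KDELR3, TMED10 and ATF6 are described beyond that rule and were chosen after their values were seen. Alternatives were another pseudocount, no filter, median-ratio scaling, merged exon lengths, protein-coding genes only, a replicate block, only the groups compared, and each library left out.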

Additional observations from a re-analysis of the deposited data

Results flagged for a closer look

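The I3MO responses of ANBL6BR and ANBL6 differed for 10 traffic genes by the interaction test of limma (difference of log2(FPKM + 1) responses, ANBL6BR minus ANBL6, ± SE, 2 libraries a group). Among COPII genes the difference was 1.36 ± 0.24 for PREB (limma adjusted p = 0.00589), 0.91 ± 0.16 for SEC16A (0.00516), 0.88 ± 0.15 for SEC24D (0.00418), 0.81 ± 0.13 for SEC31A (0.00317) and 0.77 ± 0.18 for SEC23B (0.0215). It was 1.06 ± 0.18 for COPA of the COPI coat (limma adjusted p = 0.00404) and 0.52 ± 0.13 for the receptor SURF4 (0.0292). Among vesicle genes it was 1.86 ± 0.31 for SLC17A9 (limma adjusted p = 0.00412), 1.1 ± 0.24 for HID1 (0.0167) and 0.80 ± 0.2 for SYTL1 (0.0266). The calls of SEC23B, SURF4, HID1 and SYTL1 ended when single libraries were left out. In DMSO all of the 10 genes but SEC24D and SYTL1 were called lower in ANBL6BR than in ANBL6.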

How the results depend on the processing

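No called traffic gene reversed its direction under the alternatives run. Over single genes, 4186 alternative values stayed on their side of the threshold, 298 lost a call and 74 gained one. With the spread taken only from the groups compared, the counts of called traffic genes were 0 in ANBL6BR, 0 in ANBL6, 2 in ARP1, 12 in U266 and 11 for ANBL6BR against ANBL6 in DMSO, with the shares of all genes given above, and the cause was not tested. That setting was not run for the difference of responses. Across models, 5 were called among protein-coding genes only, where 0.603% of all were, against 0 among all genes. Leaving out each library gave 23 to 32 calls in ANBL6BR, 0 to 8 in ANBL6, 17 to 20 in ARP1, 14 to 15 in RPMI8226, 22 to 25 in U266, 23 to 29 for ANBL6BR against ANBL6 in DMSO, 6 to 22 for the difference of responses, 0 across models, 20 to 37 for unequal responses and 41 to 43 for unequal DMSO levels. With 1 library left in a group, that library is assumed to vary like the others. The called share of all genes changed as well with the library left out, and the counts were not compared with it.

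Same-numbered replicates did not deviate together (r from -0.11 in ARP1 to 0.10 between the DMSO groups of ANBL6BR and ANBL6), so the numbers were not taken as pairs. With a replicate block the counts were 26 in ANBL6BR (12.9% of all genes), 2 in ANBL6 (2.91%), 21 in ARP1 (30.9%), 16 in RPMI8226 (9.82%) and 24 in U266 (21.6%). They were 28 for ANBL6BR against ANBL6 (48.5%), 7 for the difference of responses (2.88%), 18 for unequal responses (25.1%) and 42 for unequal DMSO levels (88.9%). Crossed pairing in ARP1, chosen after seeing the data, gave 21 (32.3% of all genes). Depth limits SYTL1 in ARP1, SYTL2 and SEC16B.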
